A study of Mus musculus with 4 samples.

Results

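Public T cell receptor (TCR) beta chains are chains that unrelated T cell pools have in common. Here a chain is one combination of a first-listed V segment, a first-listed J segment and an in-frame CDR3 amino acid sequence. A chain was chosen by its measured reads: it had at least 1 read in each of the 4 TCRβ libraries of splenic CD4 T cells. Of 241627 different chains, 2687 (1.11%) met this rule and are called public. The 210989 chains (87.3%) found in 1 library only are called private. A further 21647 chains were found in 2 libraries and 6304 in 3 libraries.

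The libraries come from 2 wild type (WT) mice and 2 Tet2/3 DKO mice with a mean age of 25 days. The Tet2/3 DKO genotype is Tet2-/- Tet3 flx/flx CD4Cre: Tet2 is missing in every cell, and Tet3 is deleted in T cells by a Cre recombinase that the CD4 promoter drives. Live CD4+ CD25- TCRβ+ cells that did not bind the aGalCer-CD1d tetramer were sorted in both genotypes, so regulatory T cells that express CD25 and iNKT cells were left out of all libraries. The in-frame TCRβ reads numbered 352203 in WT replicate 1, 438257 in WT replicate 2, 395406 in Tet2/3 DKO replicate 1 and 552002 in Tet2/3 DKO replicate 2.

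A TCRβ chain is assembled in the thymus by V(D)J recombination, which joins a V, a D and a J segment. Enzymes trim the segment ends, palindromic (P) bases can be left at an untrimmed end, and terminal deoxynucleotidyl transferase adds N bases that no segment encodes. The CDR3 spans this junction and is the loop that mostly contacts the peptide bound to the MHC molecule. Many nucleotide junctions can encode 1 amino acid sequence, which is known as convergent recombination. TCRβ rearrangement precedes CD4 expression in thymocyte development, so CD4Cre acts after the beta chain has been assembled.

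The CDR3 nucleotide sequences below are those deposited with the clones, written 5′ to 3′. Lower case marks the bases assigned to the V part (left) and to the J part (right), with P bases included, and capitals mark the bases between them, which hold the D part and any inserted bases. The first set belongs to the most abundant public chain, TRBV20 joined to TRBJ2-7 with a CDR3 of 14 residues, and shows 4 sequences of this chain that were each read in all 4 libraries.
TRBV20/TRBJ2-7 sequence 1: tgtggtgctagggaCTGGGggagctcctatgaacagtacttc
TRBV20/TRBJ2-7 sequence 2: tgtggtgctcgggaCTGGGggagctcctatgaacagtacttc
TRBV20/TRBJ2-7 sequence 3: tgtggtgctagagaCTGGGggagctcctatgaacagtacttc
TRBV20/TRBJ2-7 sequence 4: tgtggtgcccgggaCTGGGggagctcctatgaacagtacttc
By the deposited assignment, 5 bases of TRBD2 separated the V and J parts in each of them, with 0 inserted bases. The bases that differ between these sequences lie in the part assigned to V, so they are not counted as inserted.

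The second set shows 6 of the 23 sequences of the public chain with the most sequences, TRBV31 joined to TRBJ2-7 with 14 residues. They are the 6 with the most reads over all libraries.
TRBV31/TRBJ2-7 sequence 1: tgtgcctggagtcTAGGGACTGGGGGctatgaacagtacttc
TRBV31/TRBJ2-7 sequence 2: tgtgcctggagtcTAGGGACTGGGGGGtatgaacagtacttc
TRBV31/TRBJ2-7 sequence 3: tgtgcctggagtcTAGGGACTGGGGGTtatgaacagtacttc
TRBV31/TRBJ2-7 sequence 4: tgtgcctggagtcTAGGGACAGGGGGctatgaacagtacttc
TRBV31/TRBJ2-7 sequence 5: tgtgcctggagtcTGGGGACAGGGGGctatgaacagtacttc
TRBV31/TRBJ2-7 sequence 6: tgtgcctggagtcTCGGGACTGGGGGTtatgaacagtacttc
Sequences 4 and 5 were assigned to TRBD1 and the others to TRBD2, so both D segments were found behind the same amino acid sequence.

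The third set holds a public chain with different leading sequences in different libraries, TRBV13-1 joined to TRBJ2-7 with 13 residues. Sequence 1 led in WT replicate 1, sequence 2 in WT replicate 2 and Tet2/3 DKO replicate 2, and sequence 3 in Tet2/3 DKO replicate 1.
TRBV13-1/TRBJ2-7 sequence 1: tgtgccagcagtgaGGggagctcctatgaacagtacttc
TRBV13-1/TRBJ2-7 sequence 2: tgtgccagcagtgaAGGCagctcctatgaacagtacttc
TRBV13-1/TRBJ2-7 sequence 3: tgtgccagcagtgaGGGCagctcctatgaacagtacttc

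The fourth set shows the opposite case, the 3 most abundant public chains that had the same single nucleotide sequence in all 4 libraries, and after them 1 of the 3 shortest public chains (9 residues) and 1 of the 38 longest (16 residues), in each case the one with the highest mean share of reads.
TRBV13-1/TRBJ1-4, 14 residues: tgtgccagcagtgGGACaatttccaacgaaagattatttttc
TRBV4/TRBJ2-4, 12 residues: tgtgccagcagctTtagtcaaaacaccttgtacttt
TRBV5/TRBJ2-2, 13 residues: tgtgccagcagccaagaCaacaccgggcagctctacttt
TRBV13-2/TRBJ2-7, 9 residues: tgtgccagcggtgatgaacagtacttc
TRBV5/TRBJ2-3, 16 residues: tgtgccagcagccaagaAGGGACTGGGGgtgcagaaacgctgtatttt
The sequence of 9 residues had no base between its V and J parts, and that of 16 residues had 11.

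Public chains made up a small part of the chains of each library and a larger part of its reads. They held 4.35% of the chains of WT replicate 1, 3.60% of WT replicate 2, 3.71% of Tet2/3 DKO replicate 1 and 3.57% of Tet2/3 DKO replicate 2. Their share of the in-frame reads was 9.67% (95% Wilson confidence interval 9.57% to 9.77%) in WT replicate 1 and 9.36% (9.28% to 9.45%) in WT replicate 2. It was 9.32% (9.23% to 9.42%) in Tet2/3 DKO replicate 1 and 8.65% (8.57% to 8.72%) in replicate 2. These intervals cover counting error only, because the libraries carry no molecular identifiers and reads are PCR copies. The median public chain had 7, 10, 9 and 10 reads in the 4 libraries, against 4 reads for private chains in each library. Reads chose the public chains, so their higher level is a description of the choice.

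At the edge of the rule, the 2687 chains in all 4 libraries had a median of 41 reads in total, and the 6304 chains in 3 libraries had a median of 20. Among the public chains 427 (15.9%) had a single read in at least 1 library, and 376 (14.0%) had at least 10 reads in every library. A single read of a cell in that library cannot be told apart from a read carried over from another library, so the presence of those 427 chains in all 4 libraries rests on such reads. The other 2260 had at least 2 reads in every library. A chain in 3 libraries was missing from WT replicate 1, the library with the fewest reads, in 1927 cases. It was missing from WT replicate 2 in 1437, from Tet2/3 DKO replicate 1 in 1511 and from Tet2/3 DKO replicate 2 in 1429 cases.

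The most abundant chain of each library was not public. TRBV20 with TRBJ2-5 led WT replicate 1 with 2852 reads and had 1 read in Tet2/3 DKO replicate 1 and 0 in the other libraries. TRBV5 with TRBJ2-5 led WT replicate 2 with 1098 reads and had 0 reads elsewhere. TRBV1 with TRBJ2-3 led Tet2/3 DKO replicate 1 with 1125 reads and had 19 in WT replicate 2. TRBV13-1 with TRBJ2-5 led Tet2/3 DKO replicate 2 with 9644 reads and was absent from the other libraries. Thus the chains with the most reads were at 0, 1 or 19 reads in the libraries they did not lead. Among the 100 most abundant chains 17 were public in WT replicate 1, 20 in WT replicate 2, 33 in Tet2/3 DKO replicate 1 and 11 in Tet2/3 DKO replicate 2. Over all chains of these libraries the public share was lower, 4.35%, 3.60%, 3.71% and 3.57% in the same order. Since reads chose the public chains, this too describes the choice.

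The public chains with the highest mean share of reads were TRBV20 and TRBV13-1 chains. The TRBV20/TRBJ2-7 chain shown first had 751 and 1002 reads in WT against 290 and 438 in Tet2/3 DKO. Its mean share was 0.149% of in-frame reads. A TRBV20/TRBJ2-2 chain of 14 residues followed with 405 and 467 reads in WT and 30 and 97 in Tet2/3 DKO. Another TRBV20/TRBJ2-7 chain of 14 residues had 255 and 339 reads in WT and 91 and 145 in Tet2/3 DKO. These 3 TRBV20 chains were picked for their mean share, which high reads in a single genotype can raise, and edgeR called no genotype difference for them (adjusted p = 0.904 to 0.999). No direction by genotype is read from their values. The remaining ones, both TRBV13-1 joined to TRBJ2-7 with 13 residues, were highest in 1 WT library and low in the other. The chain of the third set had 648 reads in WT replicate 1, 3 in WT replicate 2 and 38 and 140 in Tet2/3 DKO. The other had 634 reads in WT replicate 2, 22 in WT replicate 1 and 2 and 25 in Tet2/3 DKO.

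**Figure D1:**
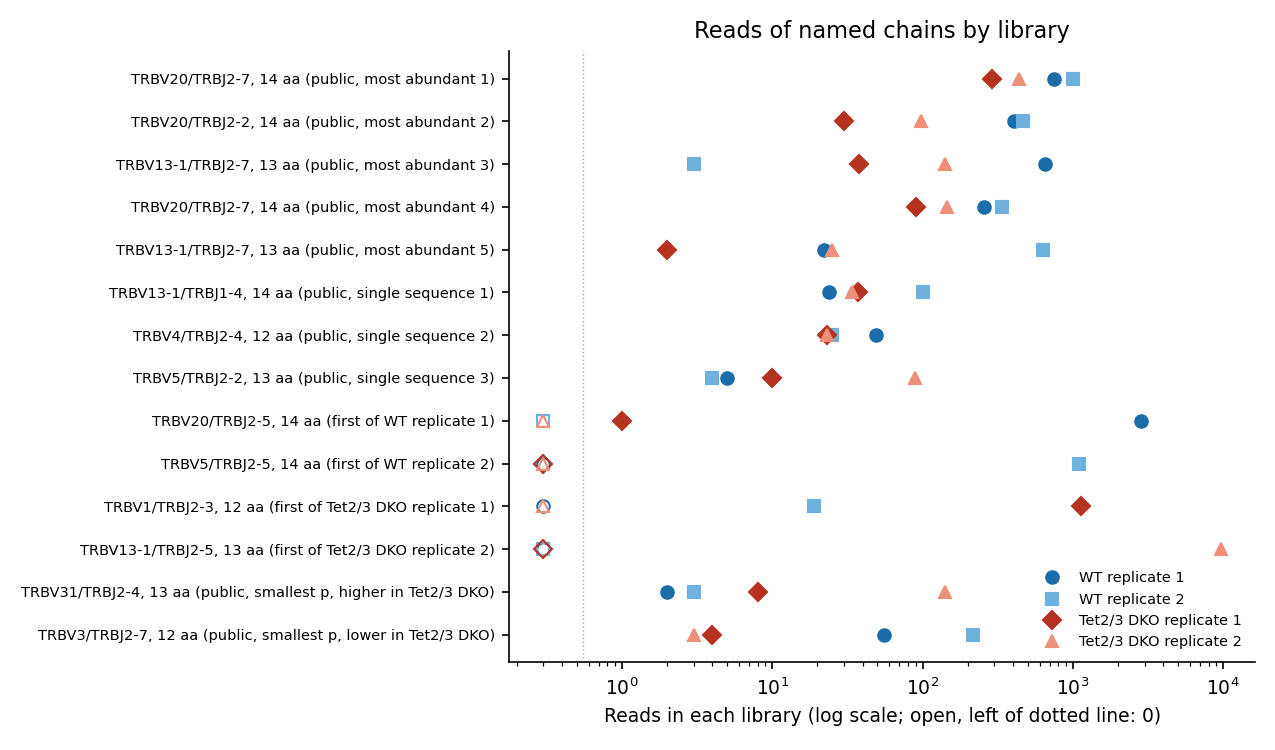
Reads of named chains in each library on a logarithmic axis, with open symbols left of the dotted line for 0 reads. The public chains have a symbol for every library, whereas the chains that lead a library, from 1098 to 9644 reads, have at most 19 reads in the others.

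The level of a public chain varied widely between libraries. The ratio of its highest to its lowest share of reads was 4.53 at the median, at most 3 for 734 chains (27.3%) and over 10 for 497 chains (18.5%). For 13 chains over 90% of the summed shares lay in 1 library, which was Tet2/3 DKO replicate 2 for 7 of them. For 746 chains (27.8%) over 50% lay in 1 library. This was WT replicate 1 for 201 chains, WT replicate 2 for 196, Tet2/3 DKO replicate 1 for 203 and Tet2/3 DKO replicate 2 for 146. Across the 2687 chains, the Spearman correlation of reads between libraries was 0.30 to 0.36 over the 6 pairs. The chains share their choice, and the correlation of the WT pair (0.33) and of the Tet2/3 DKO pair (0.33) lay within the range of the mixed pairs.

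Whether public chains differed by genotype was asked for their joint share and for each chain. The WT mean of their share of in-frame reads was 9.52 ± 0.215% and the Tet2/3 DKO mean 8.99 ± 0.478% (SD, n = 2). Tet2/3 DKO minus WT was thus -0.53 percentage points, with p = 0.333 in a two-sided exact permutation test, the smallest that 2 against 2 libraries allow. With a library left out this difference ranged from -0.97 to -0.19. The lowest WT value was above the highest Tet2/3 DKO value by less than the spread within either genotype, and the difference turned to 0.341 when the CDR3 amino acid sequence alone defined a chain. For single chains, edgeR was run on all 38775 chains with at least 10 reads in total, which included 2675 of the 2687 public chains. It called 0 chains of any kind at an adjusted p below 0.05, so that 0% were called and 0 public chains. The unadjusted p was below 0.05 for 854 chains (2.20%) and for 0 public chains. When edgeR was fitted to the public chains alone, so that their spread was estimated without the other chains, the unadjusted p was below 0.05 for 161 of 2675 and 0 passed the adjustment. DESeq2, fitted to all chains, left the adjusted p of 35330 chains undefined, 1201 public chains among them. It called 57 of the remaining 3445 (1.65%), of which 0 were public. The rule requires reads in both genotypes, so a chain absent from a genotype could not be public, and nothing about public chains is read from their count set against the other chains.

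The public chain with the smallest p among those higher in Tet2/3 DKO was TRBV31/TRBJ2-4 of 13 residues, with 2 and 3 reads in WT and 8 and 141 in Tet2/3 DKO. Its log2 fold change was 4.40 ± 3.18 (SE, edgeR adjusted p = 0.685), and most of its reads lay in 1 library. Without Tet2/3 DKO replicate 2 the log2 fold change was 1.64. The corresponding lower chain was TRBV3/TRBJ2-7 of 12 residues, with 55 and 215 reads in WT and 4 and 3 in Tet2/3 DKO. Its log2 fold change was -5.33 ± 4.01 (SE, edgeR adjusted p = 0.685). It was -5.94 without WT replicate 1 and -4.29 without WT replicate 2. Over the public chains tested the median log2 fold change was -0.12, and over all chains tested it was 0.17.

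Public chains had shorter CDR3s than private chains in every library. Their mean length was 13.2 residues with a range of 9 to 16, against 13.9, 13.9, 13.9 and 13.8 residues for the private chains of the libraries in the order given above. The mean difference within a library was -0.64 ± 0.04 residues (SD over 4 libraries, exact sign-flip permutation test, two-sided, p = 0.125, the smallest that 4 libraries allow). The public set is the same in all libraries, so the SD reflects the private chains. CDR3s of 11 residues were public most often, in 194 of 9322 chains (2.08%), followed by 12 residues with 493 of 27269 (1.81%). At 15 residues 332 of 50867 chains (0.653%) were public and at 16 residues 38 of 18628 (0.204%). Of 5303 chains with 17 or more residues 0 were public, which allows a share of up to 0.0566%.

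**Figure D2:**
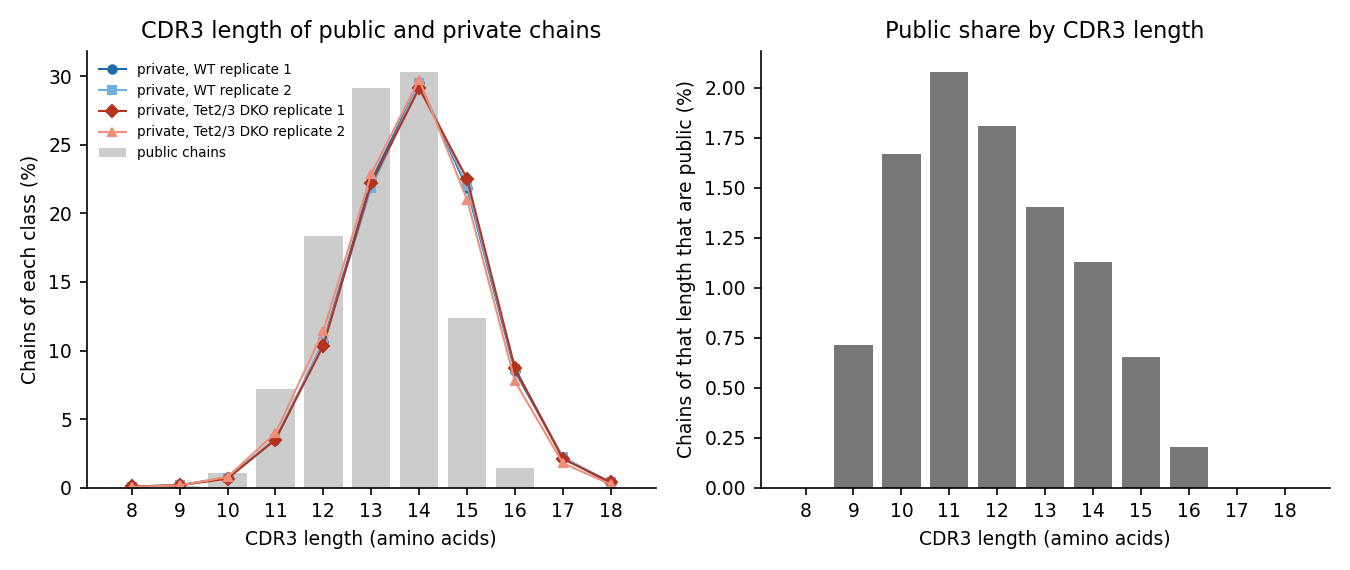
Left, percent of public chains (bars) and of the private chains of each library (lines) by CDR3 length in amino acids; right, percent of all chains of a length that were public. The bars lie left of the lines, and the public share falls from 2.08% at 11 residues to 0 at 17.

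The chain of 9 residues shown above, TRBV13-2 joined to TRBJ2-7, had 7 and 31 reads in WT and 22 and 55 in Tet2/3 DKO. The sequence shown for it was read in all 4 libraries. The chain of 16 residues shown above, TRBV5 joined to TRBJ2-3, had 19 and 38 reads in WT and 59 and 5 in Tet2/3 DKO, spread over 9 nucleotide sequences. The sequence shown for it had 38 reads, all in Tet2/3 DKO replicate 1. The most widespread sequence of the chain of 16 residues was also in all 4 libraries.

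The junctions of public chains held fewer bases between the V and the J part. For the most abundant sequence of each chain, the mean was 6.33 and 6.28 bases in WT and 6.30 and 6.28 in Tet2/3 DKO for public chains. Private chains held 9.60 and 9.66 bases in WT and 9.54 and 9.39 in Tet2/3 DKO. The mean difference was -3.25 ± 0.11 bases (SD over 4 libraries, exact sign-flip permutation test, two-sided, p = 0.125). At most 3 such bases were found in 24.1% to 24.6% of public chains and in 6.38% to 7.08% of private chains. Chains in 2 and in 3 libraries lay between them, with 7.59 to 7.64 and 6.92 to 6.99 bases. The length of the CDR3 and the number of junction bases are related measures, so they are not independent of each other.

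Public chains differed from private chains in inserted bases and in trimming. A D part was assigned to 59.2% to 60.7% of public and 75.7% to 76.3% of private chains. Among chains with a D part, 46.0% to 48.8% of public chains had no inserted base on either side of it, against 12.2% to 14.7% of private chains. The mean number of inserted bases in such chains was 0.929 to 1.00 in public and 2.53 to 2.78 in private chains. Public chains had also lost fewer bases from the V end, 1.48 to 1.52 against 2.52 to 2.58, and from the J end, 2.14 to 2.16 against 2.94 to 3.02. TRBD1 was assigned to 51.6% to 54.8% of public chains with a D part and 57.2% to 60.3% of private ones. The 4 libraries did not overlap between public and private chains in any of these measures.

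**Figure D3:**
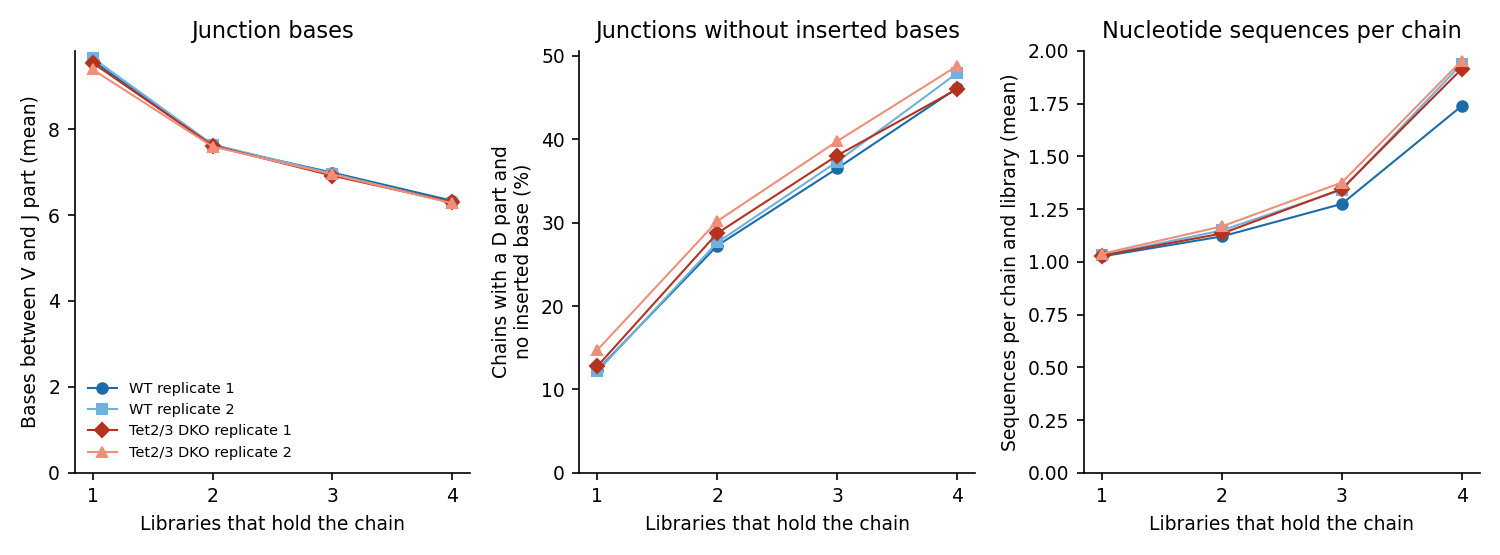
Mean bases between V and J part, percent of chains with a D part that have no inserted base, and mean CDR3 nucleotide sequences per chain and library, against the number of libraries that hold the chain (1, private; 4, public). Lines are the 4 libraries, which run close together and fall from 9.39 to 9.66 bases in private to 6.28 to 6.33 bases in public chains.

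Public chains were encoded by more nucleotide sequences than private chains. Within a library a public chain had 1.74 and 1.94 different CDR3 nucleotide sequences in WT and 1.92 and 1.95 in Tet2/3 DKO, and a private chain had 1.03 to 1.04. The mean difference was 0.855 ± 0.096 sequences (SD over 4 libraries, exact sign-flip permutation test, two-sided, p = 0.125). Because chains with more reads can show more sequences, the comparison was repeated among chains with similar reads. With 2 to 4 reads the means were 1.08 to 1.10 sequences in public and 1.01 in private chains. With 5 to 9 reads they were 1.35 to 1.42 and 1.04 to 1.05. With 10 to 19 reads, 639 to 783 public chains per library had a mean of 2.01 to 2.10 sequences and 2995 to 4938 private chains had 1.14 to 1.17. With 20 to 49 reads the means were 2.99 to 3.22 and 1.18 to 1.28. With 100 reads or more, 14 to 38 public chains had 4.08 to 5.68 and 24 to 148 private chains had 1.08 to 1.17. The higher number in public chains was present in each of these read classes, with the smallest difference at 2 to 4 reads. The rule itself bears on this measure, because a chain with more sequences can be missed less easily in a library. Matching the reads does not remove this, so the values are a description and not independent of the choice. A private chain was limited to sequences of its own library, as was a public chain in this count. Within each library, length and junction bases kept the same order in these classes. At 10 to 19 reads they were 13.1 to 13.2 against 13.6 to 13.7 residues and 6.12 to 6.24 against 9.06 to 9.29 bases. At 100 reads or more the ranges of length over libraries overlapped, 12.8 to 13.7 against 13.6 to 14.2 residues.

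Over all libraries the 2687 public chains were encoded by 13280 different CDR3 nucleotide sequences, a mean of 4.94 and a median of 4 per chain. Only 44 chains (1.64%) had a single sequence, and 146 (5.43%) had 10 or more. Of the 13280 sequences, 8767 (66.0%) were read in 1 library and 636 (4.79%) in all 4. For 575 public chains (21.4%) at least 1 nucleotide sequence was present in all 4 libraries. For 853 chains (31.7%) the most widespread sequence was in 3 libraries and for 973 (36.2%) in 2. For 286 chains (10.6%) no nucleotide sequence was read in more than 1 library, so in these reads they were shared only as amino acid sequences. A sequence not read in a library may still be present in that mouse.

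**Figure D4:**
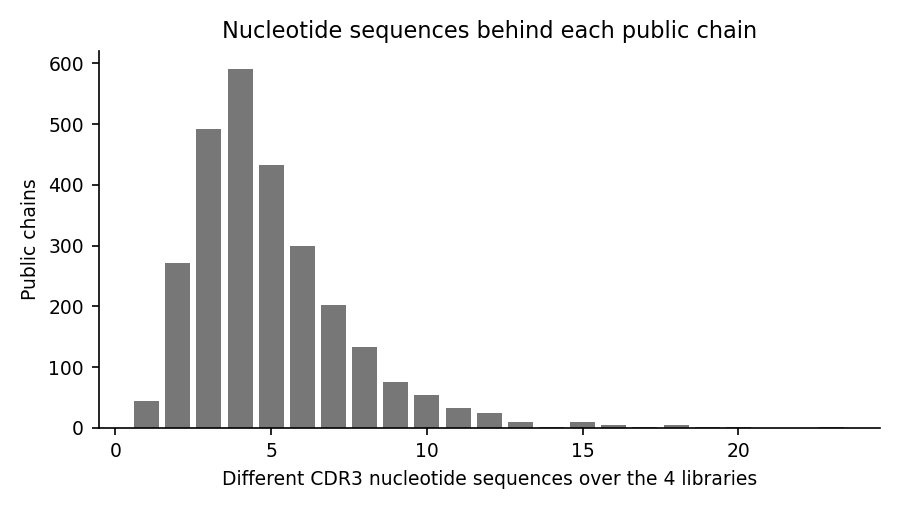
Number of public chains (vertical axis) by the number of different CDR3 nucleotide sequences that encode the chain over the 4 libraries (horizontal axis). The highest bar is at 4 sequences with 591 chains, and the longest tail reaches 23 sequences in 1 chain.

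The most abundant sequence of a public chain often changed between libraries. It was the same in all 4 libraries for 219 chains (8.15%) and different in each library for 750 chains (27.9%). Between pairs of libraries it was the same in 24.2% to 28.5% of the public chains, differed at 1 base in 37.2% to 40.5% and at 2 or more bases in 33.3% to 36.7%. The 2 WT libraries had the same leading sequence in 24.2% of chains, the 2 Tet2/3 DKO libraries in 26.2%, and pairs of different genotype in 26.1% to 28.5%. A single base difference can also come from amplification or sequencing, and the part this played was not tested.

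The sequences shown above illustrate the range. The TRBV20/TRBJ2-7 chain had 18 sequences in all, of which WT replicate 1 held 12, WT replicate 2 held 11, Tet2/3 DKO replicate 1 held 7 and Tet2/3 DKO replicate 2 held 9. Its sequence 1 led in every library with 355 and 565 reads in WT and 204 and 320 in Tet2/3 DKO. Its sequence 2 had 153 and 32 reads in WT and 4 and 10 in Tet2/3 DKO. Its sequence 3 had 10 and 124 reads in WT and 7 and 32 in Tet2/3 DKO. Hence the second place went to different sequences in the 2 WT mice. Sequences 2 and 3 differed from sequence 1 at 1 base each and sequence 4 at 2 bases, all in the V part.

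The TRBV31/TRBJ2-7 chain had 83 and 136 reads in WT and 152 and 220 in Tet2/3 DKO, and 7, 12, 13 and 15 sequences in these libraries. Its sequence 1 had 9 and 36 reads in WT and 5 and 80 in Tet2/3 DKO. Its sequence 4, assigned to the other D segment, had 18 and 10 reads in WT and 19 and 5 in Tet2/3 DKO. Both were present in all 4 libraries, and none of the 23 sequences held most of the reads. Its junctions held 13 to 16 bases between the V and J parts, above the mean of public chains. A TRBV20/TRBJ2-3 chain of 14 residues had 20 sequences, a TRBV5/TRBJ2-3 chain of 15 residues had 19 and a TRBV31/TRBJ2-1 chain of 14 residues had 18.

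In the third set, the TRBV13-1/TRBJ2-7 chain, sequence 1 had 560 reads in WT replicate 1, 0 in WT replicate 2 and 11 and 20 in Tet2/3 DKO. Sequence 2 had 3 reads in WT replicate 2 and 100 in Tet2/3 DKO replicate 2 and was absent from the other libraries. Sequence 3 had 18 reads in Tet2/3 DKO replicate 1 alone. Sequences 2 and 3 differed from sequence 1 at 2 and 1 bases.

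The single-sequence chains of the fourth set had between 4 and 100 reads in each library. The TRBV13-1/TRBJ1-4 chain had 24 and 100 reads in WT and 37 and 34 in Tet2/3 DKO. The TRBV4/TRBJ2-4 chain had 49 and 25 reads in WT and 23 in each Tet2/3 DKO library. The TRBV5/TRBJ2-2 chain had 5 and 4 reads in WT and 10 and 89 in Tet2/3 DKO, where Tet2/3 DKO replicate 2 was high. Their junctions held 4, 1 and 1 bases between the V and J parts, and none had an assigned D part.

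Public chains used V segments unequally. The Trbv genes lie on mouse chromosome 6 (positions from RefSeq, GRCm38.p6, the assembly that mm10 represents), and 19 of the 24 V segments found in the libraries occurred in public chains. TRBV5 (chr6:41062359-41062803) had the largest share, 554 public chains (20.6%) against a mean of 11.5 ± 0.847% of private chains (SD over 4 libraries). TRBV31 (chr6:41557693-41558371), which lies downstream of the D, J and C segments, followed with 481 public chains (17.9%) against 11.1 ± 1.35%. TRBV20 (chr6:41188273-41188977) had 229 (8.52%) against 6.03 ± 0.051%, and TRBV15 (chr6:41141211-41141658) had 190 (7.07%) against 5.36 ± 1.08%. These 4 segments had the largest excess.

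The same question was tested on reads per V segment with edgeR, public against private within each library. TRBV20 held 14.0% and 15.04% of public reads in WT and 12.3% and 13.6% in Tet2/3 DKO, against 6.69%, 6.76%, 6.30% and 6.15% of private reads. Its log2 fold change was 1.08 ± 0.08 (SE, adjusted p = 1.68e-07). TRBV5 held 21.0% and 21.6% of public reads in WT and 23.4% and 20.9% in Tet2/3 DKO, against 12.1%, 12.7%, 13.0% and 9.79% of private reads. Its log2 fold change was 0.87 ± 0.10 (adjusted p = 1.08e-05). TRBV31 held 19.8% and 18.5% of public reads in WT and 20.3% and 21.0% in Tet2/3 DKO, against 13.6%, 13.4%, 13.4% and 11.2% of private reads. Its log2 fold change was 0.63 ± 0.11 (adjusted p = 0.000181). For these 3 segments every public value was above every private value. Such separation was common: public and private values overlapped only for TRBV15, TRBV13-2, TRBV3, TRBV13-3, TRBV13-1 and TRBV16. The same public chains stand behind all public values of a segment. TRBV15 did not pass, with a log2 fold change of 0.14 ± 0.11 (adjusted p = 0.265), and its private share of reads in Tet2/3 DKO replicate 2 (8.07%) was above all its public shares. Without Tet2/3 DKO replicate 2 its log2 fold change was 0.29 (edgeR adjusted p = 0.0022).

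Other V segments were rare in public chains. TRBV29 (chr6:41271403-41271881) occurred in 5 public chains (0.186%) against 3.30 ± 0.320% of private chains. It held 0.112%, 0.0877%, 0.108% and 0.230% of public reads against 3.81%, 3.57%, 3.46% and 2.76% of private reads, a log2 fold change of -4.73 ± 0.28 (edgeR adjusted p = 2.87e-08). TRBV14 occurred in 14 public chains (0.521%) against 2.88 ± 0.179%, with a log2 fold change in reads of -3.43 ± 0.20 (adjusted p = 2.87e-08). TRBV17 occurred in 23 (0.856%) against 2.79 ± 0.093%, with -2.23 ± 0.16 (adjusted p = 1.61e-07). TRBV19 occurred in 2 (0.0744%) against 1.83 ± 0.175%, with -6.46 ± 0.69 (adjusted p = 5.21e-06). Its value rests on 2 public chains, and it was -7.51 without WT replicate 2 and -5.80 without Tet2/3 DKO replicate 2. When chains needed at least 5 reads in a library, no public TRBV19 read was left, and TRBV29 had -6.75 and TRBV14 -4.32. For these 4 segments every public value lay below every private value, as it did for most V segments.

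No public chain used TRBV2, TRBV21, TRBV22, TRBV24 or TRBV30. Chains are the unit counted here, and 0 of 2687 public chains allows a share of up to 0.112%. TRBV2 was in 0.699% of private chains (mean over 4 libraries), so its share was at least 6.26-fold lower in public chains. TRBV30 was in 0.575% and at least 5.15-fold lower, and TRBV24 was in 0.202% and at least 1.81-fold lower. TRBV21 and TRBV22 were in 50 and 32 private chains, shares below this limit, so that a difference was not detectable for them. TRBV22 and TRBV29 are annotated as pseudogenes in RefSeq, although both occurred in in-frame chains of these libraries.

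In all, edgeR called 3 of 24 V segments higher in public reads (12.5%) and 15 lower (62.5%). A share that rises in a few large segments lowers the others, so this split depends on the scaling. With TMM scaling, which moved the median log2 fold change by 0.35, 6 were higher and 12 lower. With the size factors of DESeq2 in the edgeR test, an alternative chosen after seeing the data, the median moved by 1.14, and 11 were higher and 9 lower. The DESeq2 test, which changes both the scaling and the model, called 11 higher and 12 lower, and the 3 further ones were TRBV21, TRBV22 and TRBV24, with 0 public reads. TRBV20, TRBV5 and TRBV31 stayed higher and TRBV29, TRBV14, TRBV17 and TRBV19 stayed lower under each of these scalings, and TRBV15 passed as higher under each one other than total reads. TRBV1, TRBV13-1, TRBV13-2, TRBV13-3, TRBV16, TRBV26 and TRBV3 changed sign with at least 1 of them. Reads of near-identical segments, such as TRBV12-1 and TRBV12-2 or the TRBV13 segments, can be divided between them by the alignment, and 2686 of the public chains remained when clones with more than 1 V hit were left out.

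J segments differed as well. TRBJ2-7 (chr6:41543810-41543856) was in 780 public chains (29.0%) against 19.8 ± 0.835% of private chains, and 1.59% of all its chains were public. It held 32.4% and 33.1% of public reads in WT and 29.5% and 33.98% in Tet2/3 DKO, against 19.02% to 19.4% of private reads. Its log2 fold change was 0.75 ± 0.06 (edgeR adjusted p = 1.09e-05). TRBJ2-3 was in 276 (10.3%) against 9.13 ± 0.768%, with a log2 fold change in reads of 0.22 ± 0.06 (adjusted p = 0.0133), and its public and private values overlapped between libraries. Without Tet2/3 DKO replicate 1 its adjusted p was 0.0731. TRBJ2-5 was in 390 (14.5%) against 13.4 ± 0.708%, with 0.06 ± 0.06 (adjusted p = 0.377). With TMM scaling TRBJ2-5 passed as higher, with 0.26 (edgeR adjusted p = 0.0022). It also passed with the size factors of DESeq2 in the edgeR test (0.29) and with DESeq2 (0.29).

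Lower in public chains were TRBJ2-1 with 207 (7.70%) against 11.1 ± 0.299% of private chains, TRBJ1-4 with 85 (3.16%) against 6.23 ± 0.311% and TRBJ2-2 with 95 (3.54%) against 6.37 ± 0.140%. Their log2 fold changes in reads were -0.66 ± 0.09 (edgeR adjusted p = 0.000289), -1.33 ± 0.08 (2.33e-06) and -0.87 ± 0.11 (0.000217). TRBJ1-5 had the fewest public chains, 13 (0.484%) against 2.66 ± 0.282%. All 4 libraries had lower public than private shares of these segments, without overlap. This also held for TRBJ1-6. TRBJ2-7 was higher without overlap, and the values of the remaining J segments overlapped. Of 12 J segments edgeR called 2 higher (16.7%) and 5 lower (41.7%). With TMM scaling, which moved the median by 0.21, 5 were higher and 5 lower, and TRBJ1-1, TRBJ1-2 and TRBJ1-3 changed sign. The segments of the TRBJ1 cluster made up 23.1% of public and 28.1% to 30.7% of private chains.

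**Figure D5:**
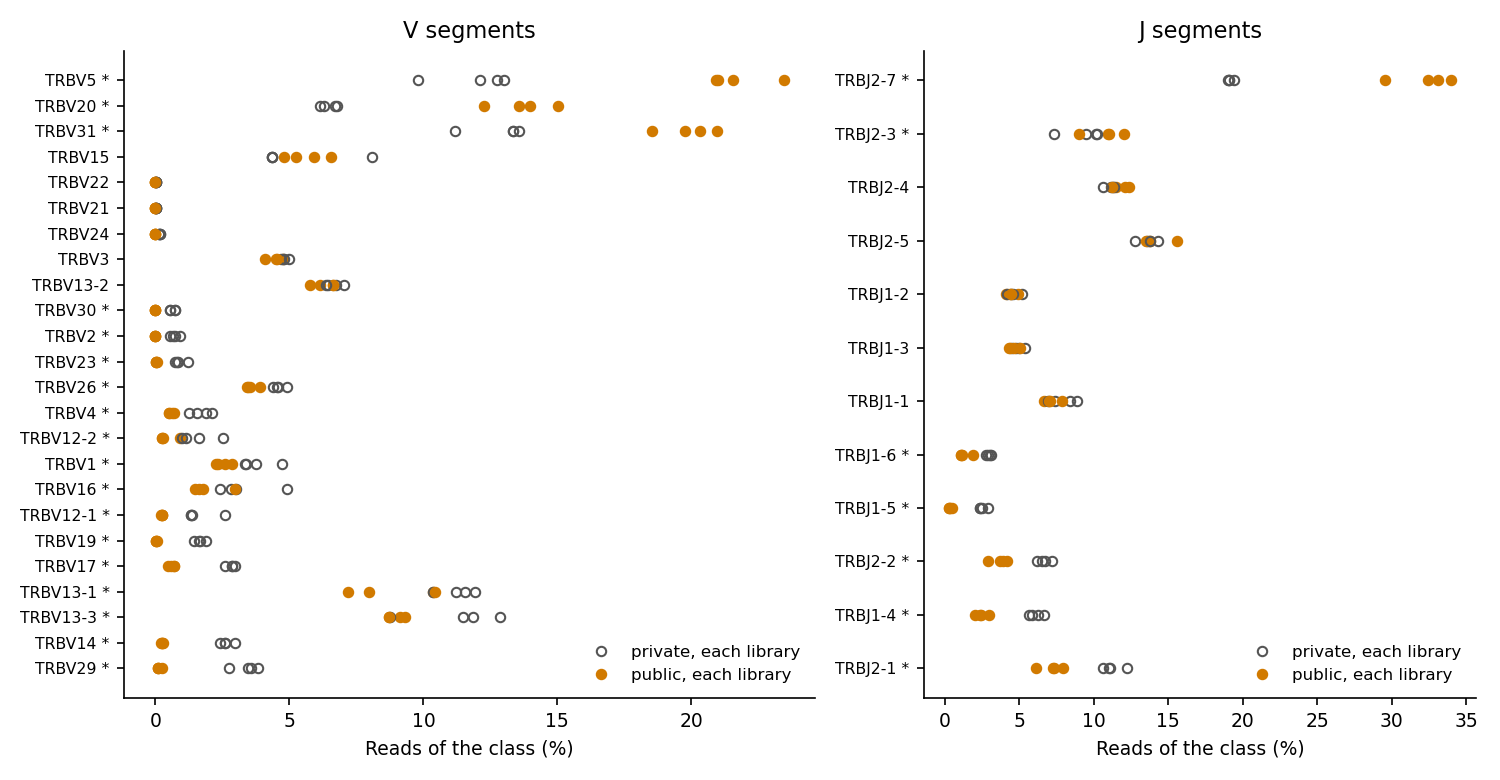
Percent of public reads (filled) and private reads (open) by V segment (left) and J segment (right), with 1 point per library and an asterisk where edgeR's adjusted p was below 0.05. TRBV5, TRBV20, TRBV31 and TRBJ2-7 have filled points right of all open ones, and TRBV29, TRBV14, TRBJ2-1 and TRBJ1-4 have them left.

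The same public chains occur in every library, so the p-values of these segment tests measure how reads varied between libraries and not how other sets of public chains would vary. Among pairs of segments, TRBV5 with TRBJ2-7 had the most public chains, 156, which was 5.81% of the public against 2.16 ± 0.127% of the private chains. Public and private chains of the same V segment also differed in length. Mean CDR3 length was 13.9 against 14.6 residues for TRBV5, 13.3 against 13.7 for TRBV31 and 12.7 against 13.1 for TRBV20. Of the V segments with at least 5 public chains, each had a shorter mean in public than in private chains.

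The residues in the middle of the CDR3, from position 5 to the fifth from the end, differed in the same comparison. Glutamine made up 9.78% of these residues in public and 7.19% in private chains, aspartate 11.2% and 9.14%, tyrosine 5.96% and 4.22%, and glycine, which all D segment reading frames can give, 23.7% and 22.1%. Arginine made up 3.75% in public and 6.45% in private chains, proline 1.88% and 3.60%, and valine 0.705% and 1.91%. For each of these 7 residues the public value was outside the range of the private values of the 4 libraries. The same held for every other residue except glutamate, so lying outside this range does not set these 7 apart. They were the residues with the largest differences in each direction. Methionine was not seen among the 14045 residues of this stretch in public chains, which allows a share of up to 0.0214%, against 0.184% of private residues. Cysteine was not seen either, but its private share (0.0176%) lies below this limit, so a difference was not detectable. These values count each chain once and are given as a description.

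Between genotypes, the junction measures of public chains differed by less than their pooled SD over libraries, except for the length weighted by reads. The mean number of bases between the V and J parts had a WT mean of 6.31 ± 0.038 and a Tet2/3 DKO mean of 6.29 ± 0.016 (SD, n = 2), with p = 0.667 by a two-sided exact permutation test. The number of nucleotide sequences per public chain and library was 1.84 ± 0.141 in WT and 1.93 ± 0.028 in Tet2/3 DKO (exact permutation test, n = 2, p = 0.667). Among public chains with a D part, 47.0 ± 1.27% in WT and 47.4 ± 1.96% in Tet2/3 DKO had no inserted base (exact permutation test, n = 2, p = 1). The mean length weighted by reads was 13.2 ± 0.020 residues in WT and 13.1 ± 0.054 in Tet2/3 DKO (exact permutation test, n = 2, p = 0.333).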

How the data were processed

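The authors prepared TCRβ libraries from 20 ng of RNA of sorted splenic CD4 T cells with a 5′ RACE kit without molecular identifiers, and the submitters' processing notes name bcl2fastq 2.20.0, fastp 0.21.0 and mm10. Clones were assembled by the authors with MiXCR, and the deposited tables give the count of reads of each clone. TCRα tables were not used here. PCR copies are counted as reads, so a count ranks clones but does not count molecules. Base errors that MiXCR did not merge can appear as further sequences.

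Clones with a stop, a frameshift or no CDR3 were left out (96.4% to 96.9% of TCRβ reads stayed), and clones with the same V, J and CDR3 were summed. Junction parts were read from the deposited reference points, with the sequence of most reads standing for a chain in a library. The members and lists were chosen with earlier results of these data known.

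Genotypes were compared by exact permutation tests over libraries, and public with private chains by exact sign flips. Reads per segment were tested by edgeR 4.0.16 (R 4.3.3, quasi-likelihood), with the library as a block, and reads per chain with edgeR by genotype. Both were scaled by total reads, required 10 reads in total and used Benjamini-Hochberg adjustment at 0.05. DESeq2 1.42.0 was an alternative. On simulated data the chain test recovered 27% of chains changed 4-fold and 91.5% of those changed 16-fold with a dispersion of 0.1. The median dispersion of the real chains tested was far higher, 5.34 over all and 2.47 over public ones. These recovered shares therefore do not describe the real chains. The V test recovered 80% and the J test 100% of segments changed 2-fold. Only segments above a minimum share of reads were changed, with 1 common dispersion. These recovered shares therefore do not cover rare segments such as TRBV2, TRBV23 and TRBV30. The labels number the replicates, and these numbers were checked for pairing. The labels and the study call the libraries of a genotype biological replicates.

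The named chains are the 5 with the highest mean percent, the 5 with the most nucleotide sequences, the 3 most abundant with a single shared sequence, a shortest and a longest (ties by mean percent), the chain with the smallest p in each direction since none was called, and the first chain of each library. The named segments are the 4 V and 3 J with the largest difference each way and the segment with the largest share.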

Additional observations from a re-analysis of the deposited data

How the results depend on the processing

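The number of public chains depended most on the rule. It was 2260 with at least 2 reads in every library, 1097 with at least 5 and 376 with at least 10. It was 2585 after drawing every library down to the smallest, 4981 with the CDR3 amino acids alone and 636 with the nucleotide CDR3 in the definition. Leaving out WT replicate 1, WT replicate 2, Tet2/3 DKO replicate 1 or Tet2/3 DKO replicate 2 gave 4116 to 4614, since a chain then had to be in 3 libraries. The genotype difference in read share, -0.53 percentage points, became 0.341 with the CDR3 amino acids alone (exact permutation test, p = 0.667), the cause of which was not tested, and ranged from -0.97 to -0.19 with a library left out. By the same exact permutation test it was -0.77 (p = 0.667) with at least 5 reads in every library and -1.37 (p = 1) with at least 10. Shorter length, fewer junction bases and more nucleotide sequences kept their direction under the 12, 12 and 11 alternatives run for them. With a library left out they ranged from -0.58 to -0.55 residues, -2.94 to -2.84 bases and 0.638 to 0.659 sequences. The difference in sequences per chain, 0.855, was 1.33 with at least 5 reads, 1.99 with at least 10 and 1.39 with the CDR3 amino acids alone.

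The calls for V segments numbered 18, and 13 to 19 with a library left out. Those for J segments numbered 7, and 6 to 7. TRBV15 turned to a log2 fold change of -0.062 when chains with fewer than 5 reads were left out. Chains changed by genotype numbered 0 in each edgeR fit, public chains included, and 57 with DESeq2, of which 0 were public. With the replicate block edgeR called 0 chains, 0 public ones among them. Same-numbered libraries did not deviate together (correlation -0.0063 over 38775 chains, -0.016 over public ones). A pairing that leaves the levels of single chains unchanged would not be seen in this way, so whether the numbers pair libraries stays undecided. The median public chain had 7 to 10 reads per library, and the part of read depth in the 0 calls by genotype was not tested.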
